A study of Mus musculus with 90 samples.

Results

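Hairpin knockdown of Epac2 in mouse liver was compared with the Control group of the same experiment, 10 Epac2 KD libraries against 10 Control libraries, which are 20 of the 90 samples of the series. The members were taken by their label, Epac2 KD or Control, among the samples named as experiment 1. The title of Control replicate 10 places it in Control, while its treatment label reads Control0. Without it 245 genes were called higher and 363 lower, against 247 and 372 with it. Knockdown was by an AAV8 vector carrying a short hairpin RNA (shRNA) that was injected into mice, and poly(A) RNA of whole liver was sequenced with a strand-specific kit. The other groups of that experiment, used here for comparison, were Gcgr KD, Gnas KD and PKA KD, each with 10 libraries. What the Control mice received, the hairpin sequences, and the strain, sex, age, feeding state and time after injection are not stated in the labels used here. Samples are numbered within each group, and no label states that they are different animals, so the p-values reflect how these libraries vary, which may be technical.

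Epac2 is the product of Rapgef4. It is an exchange factor that binds cAMP and then loads GTP onto the small GTPases Rap1 and Rap2. In hepatocytes, glucagon acts on its receptor Gcgr, the stimulatory G protein alpha subunit encoded by Gnas activates adenylyl cyclase, and the cAMP that is made can act on protein kinase A (PKA) or on the Epac proteins. Epac1, encoded by Rapgef3, is the close relative of Epac2. AAV8 is a vector known for entering hepatocytes.

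The Epac2 KD libraries held 20.8 M to 27.7 M counts, with a median of 24.6 M, and the Control libraries 22.0 M to 28.4 M, with a median of 25.8 M. Levels are given as CPM, counts scaled to a library of 1 M, as the lowest, the median and the highest library of a group. Changes are log2 fold changes ± SE, Epac2 KD over Control, with n = 10 each, and a gene is called when its adjusted p is under 0.05 over all 13574 genes tested. Of these, 4.56% were called in either direction, 1.82% as higher and 2.74% as lower. A 2-fold change is 1.0 on the log2 scale. In whole tissue, fewer cells of a type and less RNA per cell cannot be told apart. A pair of Epac2 KD libraries stood apart. Replicate 5 had 302079 CPM of mitochondrially encoded RNAs, with 200986 CPM in the next Epac2 KD library. Replicate 7 had 92378 CPM of acute phase RNAs, with 49051 CPM in the next. Without replicate 5, 217 genes were called higher and 358 lower, and without replicate 7, 252 and 353.

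The targeted transcript was strongly reduced. Rapgef4, on chromosome 2 (chr2:71981215-72257474, GRCm38.p6), stood at 5.19, 8.82 and 14.5 CPM in Epac2 KD and at 68.7, 89.0 and 122 CPM in Control. Every Epac2 KD library lay below every Control library, and the mean in Epac2 KD was 10.4% of the Control mean. The log2 fold change was -3.27 ± 0.18 (adjusted p = 1.7e-19). The other 3 knockdown groups had Rapgef4 means of 95.3, 79.5 and 92.2 CPM in Gcgr KD, Gnas KD and PKA KD. Against their mean, the log2 fold change of Epac2 KD was -3.23 ± 0.16 (adjusted p = 9.42e-21).

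The relative of the target and its substrates did not pass the test. Rapgef3 had 1.74, 3.73 and 4.71 CPM in Epac2 KD and 2.32, 3.05 and 4.98 CPM in Control, with overlapping groups and a log2 fold change of 0.11 ± 0.17 (adjusted p = 0.802). Rap1a, the first Rap1 GTPase, had medians of 26.1 and 26.8 CPM in Epac2 KD and Control (-0.09 ± 0.10, adjusted p = 0.723). Rap1b had 20.9, 22.5 and 25.8 CPM against 20.6, 25 and 30.0 CPM in Control, and its change of -0.16 ± 0.07 was not called (adjusted p = 0.184). Of 6 Epac and related exchange factors tested, Rapgef4 alone was called, and of 14 Rap GTPases and their regulators none was, with a median log2 fold change of -0.02. Over all genes tested the median was 0.02. Among 14 tested effectors of Rap1, 1 was called. This was Rassf5, also known as RAPL, which binds active Rap1 and had 11.1, 12.8 and 14.7 CPM against 8.34, 10.4 and 12.4 CPM in Control (0.32 ± 0.08, adjusted p = 0.0134).

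**Figure D1:**
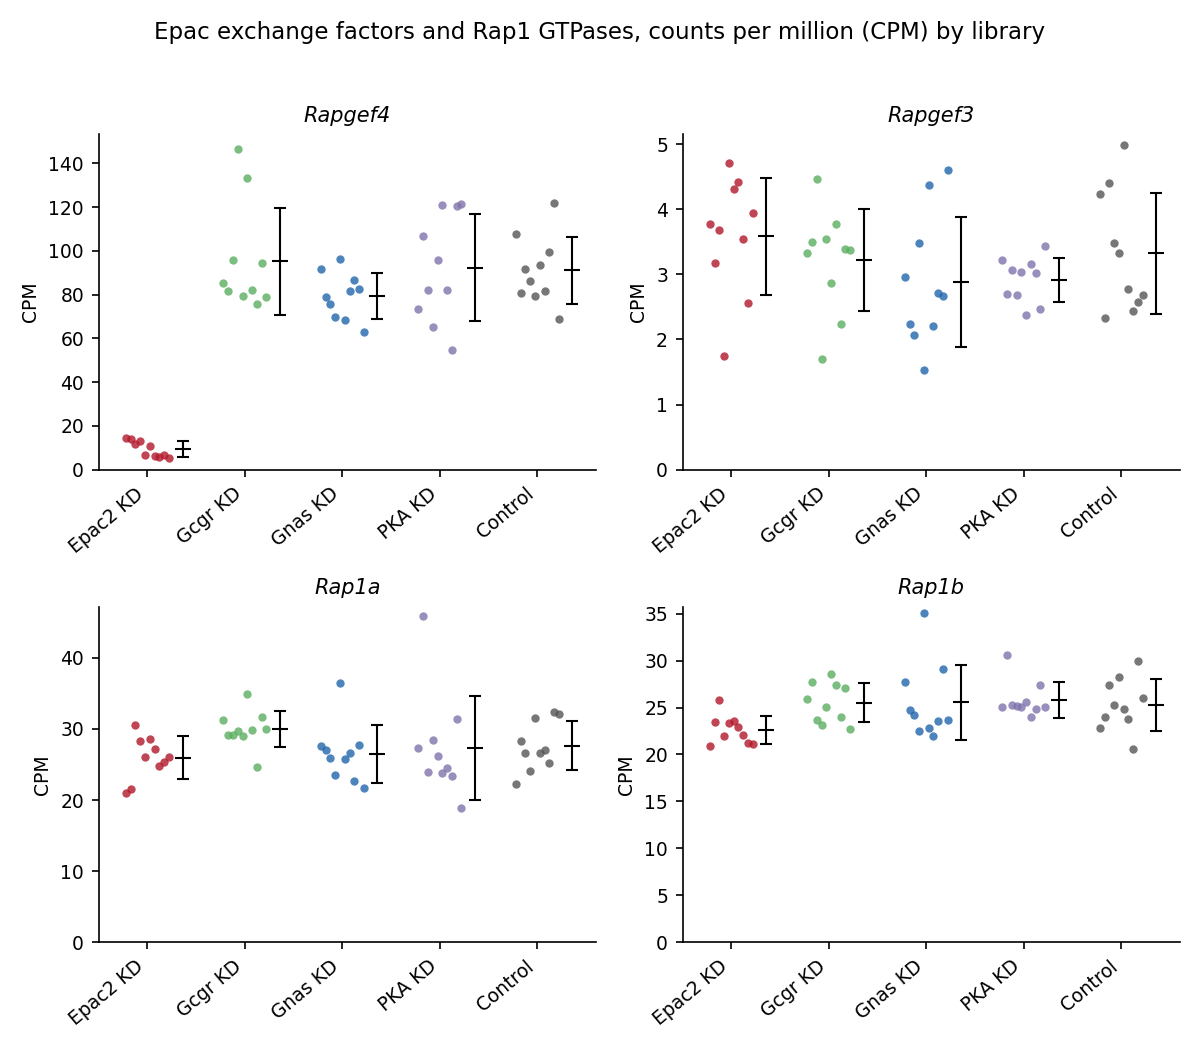
CPM (y axis, from 0) of Rapgef4, Rapgef3, Rap1a and Rap1b in each of 10 libraries per group, with the group mean and SD beside the points. Rapgef4 reached at most 14.5 CPM in Epac2 KD and was at least 68.7 CPM in Control, while the other 3 genes overlapped between Epac2 KD and Control.

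The steps above and beside Epac2 in the cascade gave no call. None of 12 tested genes for the receptor, G proteins and adenylyl cyclases was called (median 0.05), and none of 13 for PKA subunits and anchors (median 0.06), by edgeR. Unadjusted p-values were under 0.05 for 2 and 4 of them. Adcy6, an adenylyl cyclase, had 29.5, 50.2 and 57.3 CPM in Epac2 KD and 48.3, 58.6 and 80.3 CPM in Control (-0.42 ± 0.14, adjusted p = 0.0636) and was called lower by limma-voom and DESeq2. Gcgr had 122, 169 and 205 CPM in Epac2 KD and 146, 172 and 218 CPM in Control (-0.04 ± 0.10). Gnas (0.03 ± 0.10) and the PKA catalytic subunits Prkaca (-0.03 ± 0.12) and Prkacb (0.10 ± 0.08) were not called either. Prkar1a, a regulatory subunit gene that restrains PKA, was at 105, 120 and 130 CPM against 123, 128 and 134 CPM in Control, and its change of -0.11 ± 0.04 missed the threshold (adjusted p = 0.09), though DESeq2 called it.

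Few genes that end or carry on the cAMP signal passed. Of 10 cAMP phosphodiesterases, Pde3b fell, an insulin-responsive enzyme that hydrolyses cAMP, with 28.5, 34.7 and 39.5 CPM in Epac2 KD and 35.6, 42.6 and 46.8 CPM in Control (-0.26 ± 0.06, adjusted p = 0.00383). The groups overlapped. Pde3b was also low in the other knockdowns, with means of 33.7, 33.4 and 39.1 CPM in Gcgr KD, Gnas KD and PKA KD, and Epac2 KD did not differ from their mean by the test (-0.01, adjusted p = 0.878). Of 20 genes of CREB, its coactivators and its response, Atf1 fell, a transcription factor related to CREB (-0.22 ± 0.05, adjusted p = 0.00623).

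Across all genes 247 were called higher and 372 lower in Epac2 KD. With a covariate for the level of male-biased genes, 396 were called higher and 522 lower. Most changes were small. The median called rise was 0.30 and the median called fall -0.39 on the log2 scale, and 21 rises and 20 falls reached 2-fold. Groups that did not overlap at all, with all 10 Epac2 KD libraries on one side of all 10 Control libraries, were found for 73 falls and 5 rises. That is 0.575% of the genes tested for either direction and 0.538% for falls. The 73 falls ran between -3.27 and -0.19 with a median of -0.57, and the 5 rises between 0.24 and 0.55. All 73 lay below the mean of the 3 other knockdowns too, and 70 of them were called in that comparison, which calls 30.3% of all genes in either direction and 14.0% as lower. Both comparisons use the same 10 Epac2 KD libraries. Whether these changes follow from the loss of Epac2 or from other effects of its hairpin was not tested. Matches of the falling transcripts to the hairpin sequence were not examined.

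**Figure D2:**
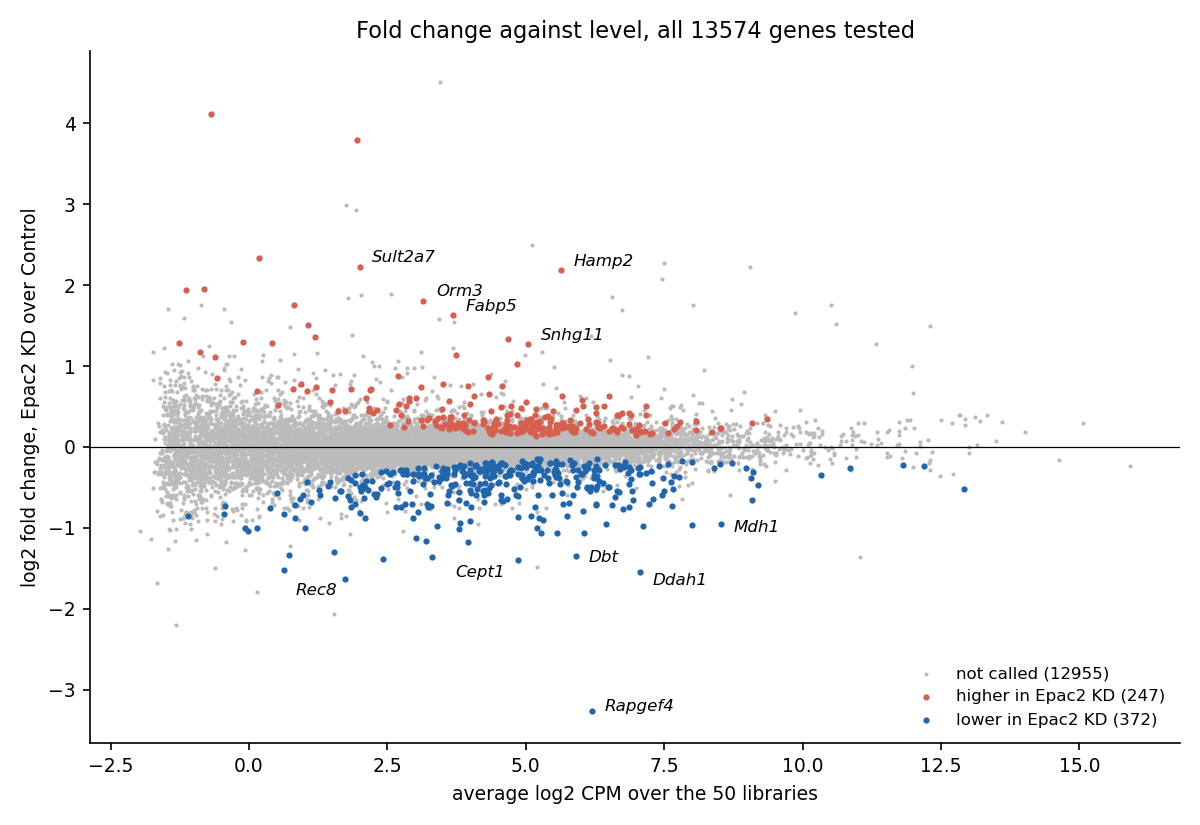
Log2 fold change of Epac2 KD over Control (y axis) against average log2 CPM over 50 libraries (x axis) for each of 13574 genes, with 247 called higher in red, 372 called lower in blue and the rest in grey. Rapgef4 lies apart at -3.27, and other labelled falls such as Ddah1, Dbt and Mdh1 lie between -1.63 and -0.95.

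After Rapgef4, the falls with the lowest p-values included enzymes of central metabolism. Mdh1, the cytosolic malate dehydrogenase of the malate-aspartate shuttle, had 179, 218 and 245 CPM in Epac2 KD and 363, 418 and 463 CPM in Control. The groups were far apart, and the mean was 51.9% of that of Control (-0.95 ± 0.06, adjusted p = 5.84e-17). Its means were 353, 353 and 508 CPM in Gcgr KD, Gnas KD and PKA KD. Dbt encodes the E2 subunit of the branched-chain ketoacid dehydrogenase, which commits valine, leucine and isoleucine to oxidation. It had 18.9, 26.9 and 36.4 CPM against 55.8, 71.6 and 86.6 CPM in Control, again with no overlap (-1.35 ± 0.11, adjusted p = 9.31e-14). Coasy, the enzyme for the last steps of coenzyme A synthesis, stood at 79.5, 88.8 and 98.9 CPM against 139, 147 and 159 CPM (-0.74 ± 0.06, adjusted p = 6.03e-14). Its means of 120, 116 and 106 CPM in Gcgr KD, Gnas KD and PKA KD were also below the Control mean of 148 CPM. Against the mean of these 3 groups the change of Coasy was -0.35 (adjusted p = 9.29e-08).

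Lipid and signalling genes were also among them. Cept1, which makes phosphatidylcholine and phosphatidylethanolamine in its last step, had 9.17, 11.5 and 14.7 CPM in Epac2 KD and 23.5, 29.3 and 40.4 CPM in Control (-1.40 ± 0.10, adjusted p = 4.65e-16). Ddah1, which breaks down the nitric oxide synthase inhibitor asymmetric dimethylarginine, had 20.4, 58.4 and 74.3 CPM against 128, 171 and 188 CPM (-1.55 ± 0.13, adjusted p = 1.28e-12). Neither gene overlapped between the groups. Nr3c1 encodes the glucocorticoid receptor, a main driver of fasting gene expression in liver. It had 35.3, 36.7 and 44.4 CPM against 53.1, 59.9 and 68.5 CPM in Control, so every Epac2 KD library was lower (-0.69 ± 0.06, adjusted p = 1.04e-13). Twsg1, a secreted modulator of bone morphogenetic protein signals, changed by -0.90 ± 0.06, and Myo6, a motor that moves toward the minus end of actin filaments, by -1.07 ± 0.08 (adjusted p = 1.72e-15 for each), both with separate groups.

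**Figure D3:**
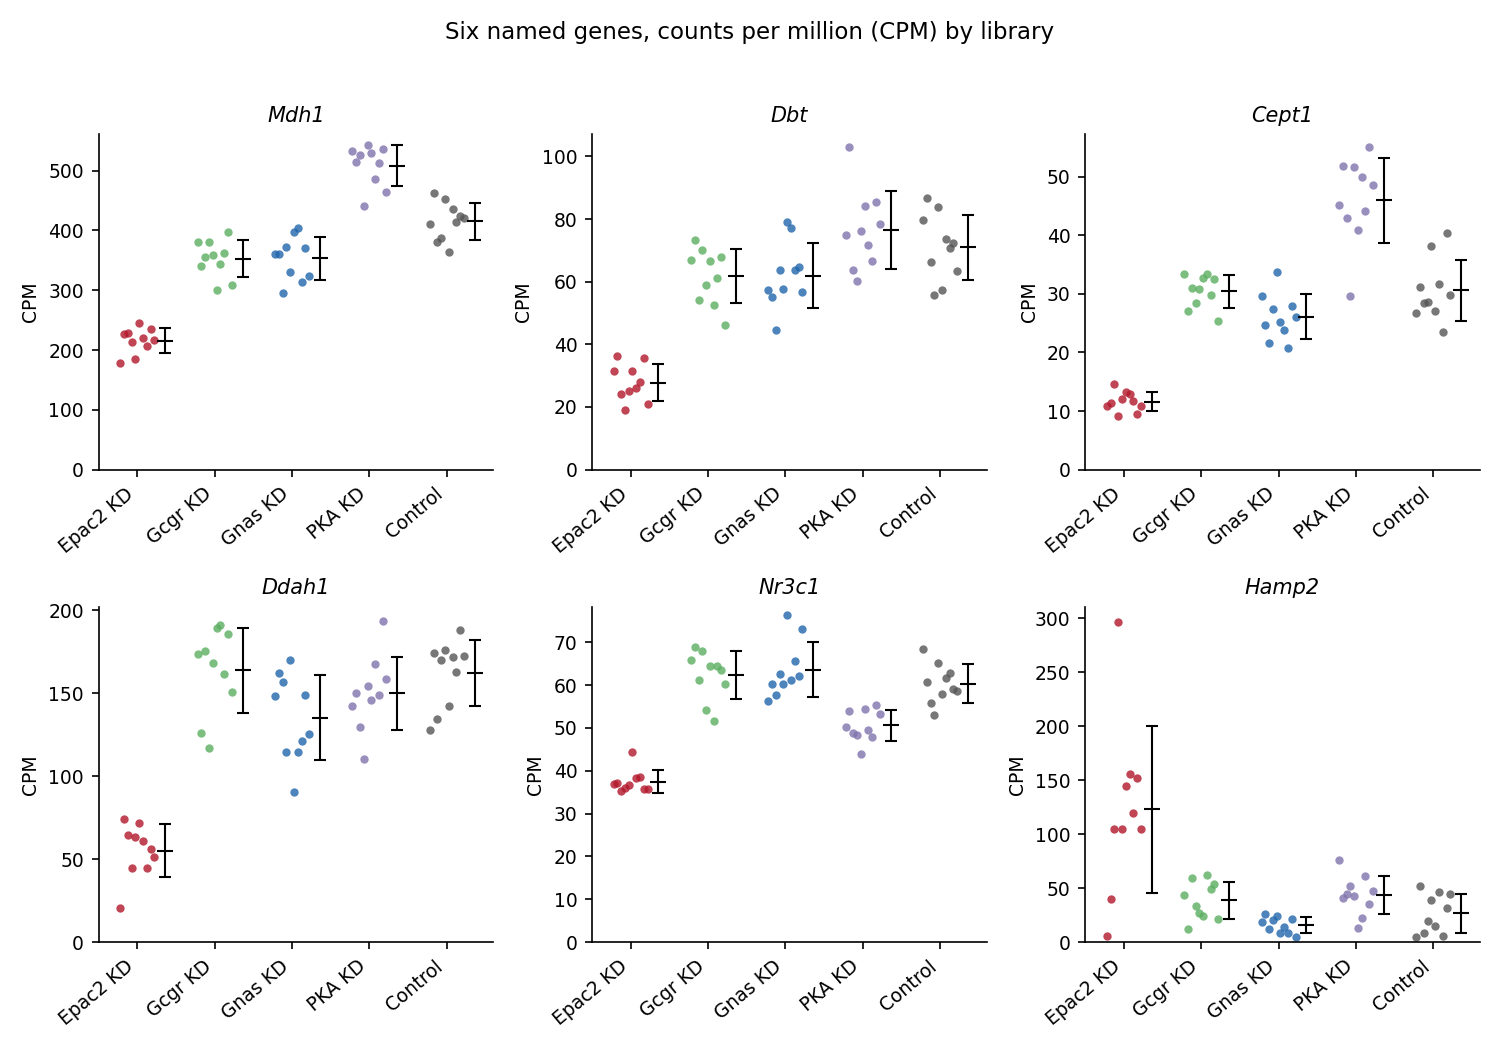
CPM (y axis, from 0) of Mdh1, Dbt, Cept1, Ddah1, Nr3c1 and Hamp2 in each of 10 libraries per group, with mean and SD. The first 5 genes are lower in all 10 Epac2 KD libraries than in any Control library, and Hamp2 is above all Control libraries in 8 Epac2 KD libraries, with 1 at 5.69 CPM.

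Other large falls were in part genes of low level. Rec8, a cohesin subunit known from meiosis, had 0.302, 0.753 and 1.24 CPM in Epac2 KD and 1.51, 2.46 and 3.80 CPM in Control (-1.63 ± 0.22, adjusted p = 2.85e-07). Treh, which splits trehalose, had 0.685, 1.89 and 2.85 CPM against 3.14, 4.29 and 6.64 CPM (-1.30 ± 0.25, adjusted p = 0.000417). Both were separate between the groups, and Treh was also at 1.61 CPM on average in PKA KD. Plekhb2 (-1.17 ± 0.10) and Smim13 (-1.16 ± 0.12) were separate as well. Cntnap1 (-1.36 ± 0.32) and Cyp39a1 (-1.13 ± 0.21), an oxysterol hydroxylase, overlapped. Cyp39a1 means were 8.22, 6.38 and 6.45 CPM in Gcgr KD, Gnas KD and PKA KD, and the difference of Epac2 KD to them was not called (-0.24, adjusted p = 0.311).

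Fgf21, a liver hormone of fasting and amino acid shortage, had 0.876, 3.84 and 8.24 CPM in Epac2 KD and 5.13, 9.65 and 17.6 CPM in Control. The groups overlapped, and the change of -1.39 ± 0.38 (adjusted p = 0.0228) was no longer called without Control replicate 6 (adjusted p = 0.0515). Its means were 6.47, 3.89 and 2.45 CPM in Gcgr KD, Gnas KD and PKA KD, and Epac2 KD did not differ from these by the test (-0.09, adjusted p = 0.863).

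Further falls with separate groups are named here after their values were seen. Mia3, which helps large cargo out of the endoplasmic reticulum, averaged 135 CPM in Epac2 KD and 265 CPM in Control (-0.97, adjusted p = 1.31e-12). Lman1, a cargo receptor between the endoplasmic reticulum and the Golgi apparatus, averaged 128 and 211 CPM (-0.73, adjusted p = 6.48e-10). Mpc2, a subunit of the mitochondrial pyruvate carrier, averaged 55.1 and 89.7 CPM (-0.70, adjusted p = 2.16e-08). Each of these also lay below the mean of the 3 other knockdowns, with log2 fold changes of -1.11 for Mia3, -0.79 for Lman1 and -0.55 for Mpc2. All 73 falls with separate groups did so, and the same Epac2 KD libraries enter both comparisons, so this adds no separate support for these genes.

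Rises were fewer, and most were small. Ccnd3, the G1 cyclin D3, was the rise with the lowest p, at 35.7, 43.8 and 62.2 CPM in Epac2 KD and 27.3, 30.7 and 34.8 CPM in Control (0.55 ± 0.07, adjusted p = 4.62e-07). It did not overlap. Arhgef7, an exchange factor for Rac and Cdc42, was also separate, with 33.6, 36.7 and 40 CPM against 25.6, 28.3 and 33.1 CPM (0.35 ± 0.05, adjusted p = 9.04e-06). Its means were 37.1, 34.5 and 30.4 CPM in Gcgr KD, Gnas KD and PKA KD, against 36.9 CPM in Epac2 KD and 28.9 CPM in Control. Against the mean of the other knockdowns the change of Arhgef7 was 0.12 (adjusted p = 0.0287), and against Gnas KD alone 0.10 (adjusted p = 0.194). Ogdh, the E1 subunit of the 2-oxoglutarate dehydrogenase of the citric acid cycle, had 281, 320 and 351 CPM against 220, 259 and 283 CPM (0.32 ± 0.06, adjusted p = 5.72e-05). Its groups touched. Pdxk, which activates vitamin B6 (0.46 ± 0.08), Tmem147 (0.35 ± 0.05) and Eaf1 (0.32 ± 0.05), a factor of transcription elongation, rose with overlap.

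The largest rises varied widely between libraries. Hamp2, a paralog of the iron hormone gene Hamp, had 5.69, 112 and 296 CPM in Epac2 KD and 4.78, 25.8 and 52.1 CPM in Control (2.19 ± 0.43, adjusted p = 0.000522). Replicates 3 and 7 of Epac2 KD lay within the range of Control, and the other 8 above it. Hamp2 was higher than the mean of the 3 other knockdowns too (2.04, adjusted p = 1.03e-06). Orm3, an acute phase glycoprotein gene, had 3.94, 10 and 19 CPM against 0.739, 2.80 and 6.04 CPM in Control (1.81 ± 0.28, adjusted p = 9.04e-06). It was as high in the other knockdowns, at 11.3, 9.79 and 10 CPM on average in Gcgr KD, Gnas KD and PKA KD (-0.04, adjusted p = 0.907). Both Hamp2 and Orm3 have near copies, and how the authors' counting shared reads between copies is not stated in the labels used here.

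Fabp5, a fatty acid binding protein, had 5.11, 17.1 and 78.8 CPM in Epac2 KD and 3.64, 6.56 and 14.6 CPM in Control (1.63 ± 0.36, adjusted p = 0.00276). Snhg11, a noncoding host of small nucleolar RNAs, had 19.4, 34.1 and 71.7 CPM against 11.6, 13.8 and 22.2 CPM (1.27 ± 0.20, adjusted p = 1.55e-05). For Snhg11, 9 of 10 Epac2 KD libraries exceeded the highest Control library, and the groups overlapped for both genes. Snhg11 averaged 87.6 CPM in PKA KD. Sult2a7, a sulfotransferase gene with close copies, changed by 2.23 ± 0.39 at under 6 CPM and was not called by limma-voom (adjusted p = 0.168). Sox9, a transcription factor of bile duct cells, had 9.44, 11.9 and 22.8 CPM against 5.57, 7.94 and 12.5 CPM (0.78 ± 0.19, adjusted p = 0.00572). Atp11a, a phospholipid flippase gene, changed by 1.34 ± 0.36 and lost its call without Epac2 KD replicate 7 (adjusted p = 0.121), which held 122 CPM where the median was 21.8. It was not called by limma-voom either (adjusted p = 0.112).

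The metabolic programmes that glucagon is known to govern are given by list. Of 17 gluconeogenesis genes 4 fell and none rose (median 0.01), where 2.74% of all genes were called lower and 1.82% higher. The 4 falls were Mdh1 and Nr3c1, described above, Gk, glycerol kinase (-0.38 ± 0.10, adjusted p = 0.0172), and Gpd1, cytosolic glycerol-3-phosphate dehydrogenase (-0.31 ± 0.09, adjusted p = 0.0252). Gk had 49.1 to 79.2 CPM in Epac2 KD, 47.7 to 89.3 in Gcgr KD and 52.1 to 76.3 in Gnas KD. It had 52.0 to 108 CPM in PKA KD and 69.7 to 104 CPM in Control. Gpd1 was low in all 3 other knockdowns too. It ran from 379 to 629 CPM in Gcgr KD, 452 to 614 in Gnas KD and 436 to 613 in PKA KD. Its range was 412 to 672 CPM in Epac2 KD and 591 to 818 CPM in Control. Gpd1 lost its call when Epac2 KD replicate 2, 4 or 10 or Control replicate 9 was left out (adjusted p up to 0.0608). The rate-limiting enzyme gene Pck1 had 653, 1209 and 2280 CPM in Epac2 KD and 714, 1226 and 1873 CPM in Control (0.16 ± 0.19, adjusted p = 0.751). G6pc, the last step of glucose release, had medians of 226 and 228 CPM (0.21 ± 0.24), and the coactivator gene Ppargc1a had 8.81 and 8.54 CPM (0.14 ± 0.14), both without a call.

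Amino acid breakdown showed 2 rises and 1 fall among 54 genes (median 0.05). The fall was Dbt. The rises were Mccc1, a subunit of an enzyme of leucine breakdown (0.23 ± 0.06, adjusted p = 0.0202), lost without Epac2 KD replicate 10 (adjusted p = 0.0591) or with the 20 libraries alone (adjusted p = 0.0588), and Acmsd of tryptophan breakdown (1.14 ± 0.32, adjusted p = 0.0264). Acmsd was lost without Epac2 KD replicate 2 or 10 or Control replicate 5 (adjusted p up to 0.118), and with limma-voom (adjusted p = 0.112). Against the mean of the 3 other knockdowns 40 of the 54 genes were called higher in Epac2 KD and 4 lower (median 0.32), where 16.3% of all genes were called higher and 14.0% lower. Gls2, liver glutaminase, averaged 274 CPM in Epac2 KD, against 155, 134 and 112 CPM in Gcgr KD, Gnas KD and PKA KD, and 251 CPM in Control. Its change was called against the other knockdowns (1.05, adjusted p = 1.69e-06) and not against Control (0.13 ± 0.21, adjusted p = 0.827). Tat and Sds, which start tyrosine and serine breakdown, had the same outcome. None of 9 urea cycle genes was called against Control (median 0.05).

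Lipid genes are set beside the same shares, 1.82% of all genes called higher and 2.74% called lower. Of 30 genes of fatty acid oxidation and ketogenesis 1 rose and 2 fell (median -0.01). Hadhb, the beta subunit of the mitochondrial trifunctional protein, had 68.6, 104 and 118 CPM in Epac2 KD and 123, 129 and 161 CPM in Control, with no overlap (-0.46 ± 0.08, adjusted p = 0.00012). Fgf21 was the other fall. Cpt2, which re-forms acyl-CoA inside mitochondria, rose (0.21 ± 0.06, adjusted p = 0.0176) and lost its call without Control replicate 8 (adjusted p = 0.0518). Of 27 glycolysis and lipogenesis genes, 2 fell (median 0.18). Slc2a2, the hepatic glucose transporter, had 104, 151 and 222 CPM against 188, 223 and 284 CPM (-0.52 ± 0.11, adjusted p = 0.00074). Fads1, the delta-5 desaturase, had 374, 576 and 692 CPM against 649, 893 and 996 CPM (-0.66 ± 0.17, adjusted p = 0.0116), and its means of 531, 437 and 353 CPM in Gcgr KD, Gnas KD and PKA KD were also below Control. Fasn and Scd1, main enzymes of fatty acid synthesis, varied strongly, Scd1 between 1868 and 25642 CPM in Epac2 KD and between 5689 and 22451 CPM in Control (0.02 ± 0.65).

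No gene was called in the lists of glycogen metabolism (13 tested, median 0.02), lipid droplets (12, -0.18), cholesterol synthesis (23, 0.00), bile acids (18, 0.01), the circadian clock (19, 0.00), drug metabolism (27, -0.04) or endoplasmic reticulum chaperones (21, 0.07). Cyp7a1, the rate-limiting enzyme of bile acid synthesis, had medians of 60.4 CPM in Epac2 KD and 77.6 CPM in Control (0.01 ± 0.28).

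Interferon response genes formed the list with the most called members. These genes are induced when interferons bind their receptors, and they restrict viruses and other intracellular microbes. Of 46 tested, 17 fell and none rose, 45 of 46 lay below 0, and the median log2 fold change was -0.49, where 2.74% of all genes were called lower and the median was 0.02. The members were chosen with earlier results of these data known, so the count is a description. With the covariate for male-biased genes, 30 members were called lower. The called falls lay between -1.02 and -0.43. No member had separate groups.

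Guanylate binding proteins and related GTPases, which attack the vacuoles of intracellular microbes, led by p-value. Gbp6 had 11.1, 18.0 and 28.8 CPM in Epac2 KD and 26.6, 35.6 and 47.8 CPM in Control (-1.0 ± 0.16, adjusted p = 1.85e-05). Gbp6 has near copies whose reads may be shared. Gbp3 had 4.93, 6.23 and 10.1 CPM against 9.45, 14.8 and 18.2 CPM (-1.02 ± 0.17, adjusted p = 2.57e-05). For both genes all 10 Epac2 KD libraries lay below the Control median. Igtp had 18.0, 25.2 and 34.3 CPM against 30.3, 48.0 and 64.2 CPM (-0.88 ± 0.17, adjusted p = 0.000646), and Gbp7 (-0.66 ± 0.14, adjusted p = 0.000912) and Irgm1 (-0.49 ± 0.13, adjusted p = 0.0191) fell too. Irgm2 (-0.49 ± 0.14, adjusted p = 0.0347) lost its call on leaving out any of 11 of the 20 libraries.

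Transcription factors of the response are among the members. Irf9 had 21.1, 24.1 and 27.5 CPM in Epac2 KD and 25, 36.1 and 39.5 CPM in Control (-0.49 ± 0.11, adjusted p = 0.00276). The groups overlapped only at their edges. Stat2 was not called (-0.17 ± 0.08, adjusted p = 0.236). Irf7, which amplifies type I interferon production, had 23.1, 30.8 and 53.4 CPM against 33.6, 52.9 and 85.1 CPM (-0.71 ± 0.21, adjusted p = 0.0306), and its call was lost on leaving out any of 7 of the 20 libraries.

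Antiviral effectors and the chemokine Cxcl10 followed. Cxcl10, which draws in T cells, had 1.53, 3.84 and 6.47 CPM in Epac2 KD and 2.86, 6.96 and 12.4 CPM in Control (-0.88 ± 0.20, adjusted p = 0.00383). Rsad2, the antiviral enzyme viperin, had 6.17, 10.1 and 15.1 CPM against 12.4, 17.5 and 25.4 CPM (-0.87 ± 0.22, adjusted p = 0.0109). Usp18, which removes Isg15 from proteins and damps the receptor, had 6.63, 9.07 and 11.8 CPM against 11.6, 16 and 21.8 CPM (-0.74 ± 0.19, adjusted p = 0.0112). All 10 Epac2 KD libraries lay below the Control median for these genes. Ifit3 (-0.60 ± 0.16), Parp14 (-0.43 ± 0.11) and Rtp4 (-0.60 ± 0.17) fell with adjusted p-values of 0.0151, 0.0158 and 0.0219, though limma-voom did not call Rtp4 (adjusted p = 0.0557). Ifit1, which binds viral RNA ends, had 4.53, 5.84 and 9.02 CPM against 7.28, 10.3 and 17.9 CPM (-0.92 ± 0.28, adjusted p = 0.0452), and the call was lost without any of 15 of the 20 libraries, with no filter, with the replicate block and with limma-voom (adjusted p = 0.0678, 0.0631 and 0.166). Oasl2 (-0.60 ± 0.18, adjusted p = 0.0341) was lost without any of 9 and with limma-voom (adjusted p = 0.0732). The other 13 of the 17 called members stayed called whichever library was left out. Isg15 (-0.66 ± 0.25, adjusted p = 0.128), Mx1 (-0.30 ± 0.20) and Oas2 (0.03 ± 0.15) are members without a call.

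**Figure D4:**
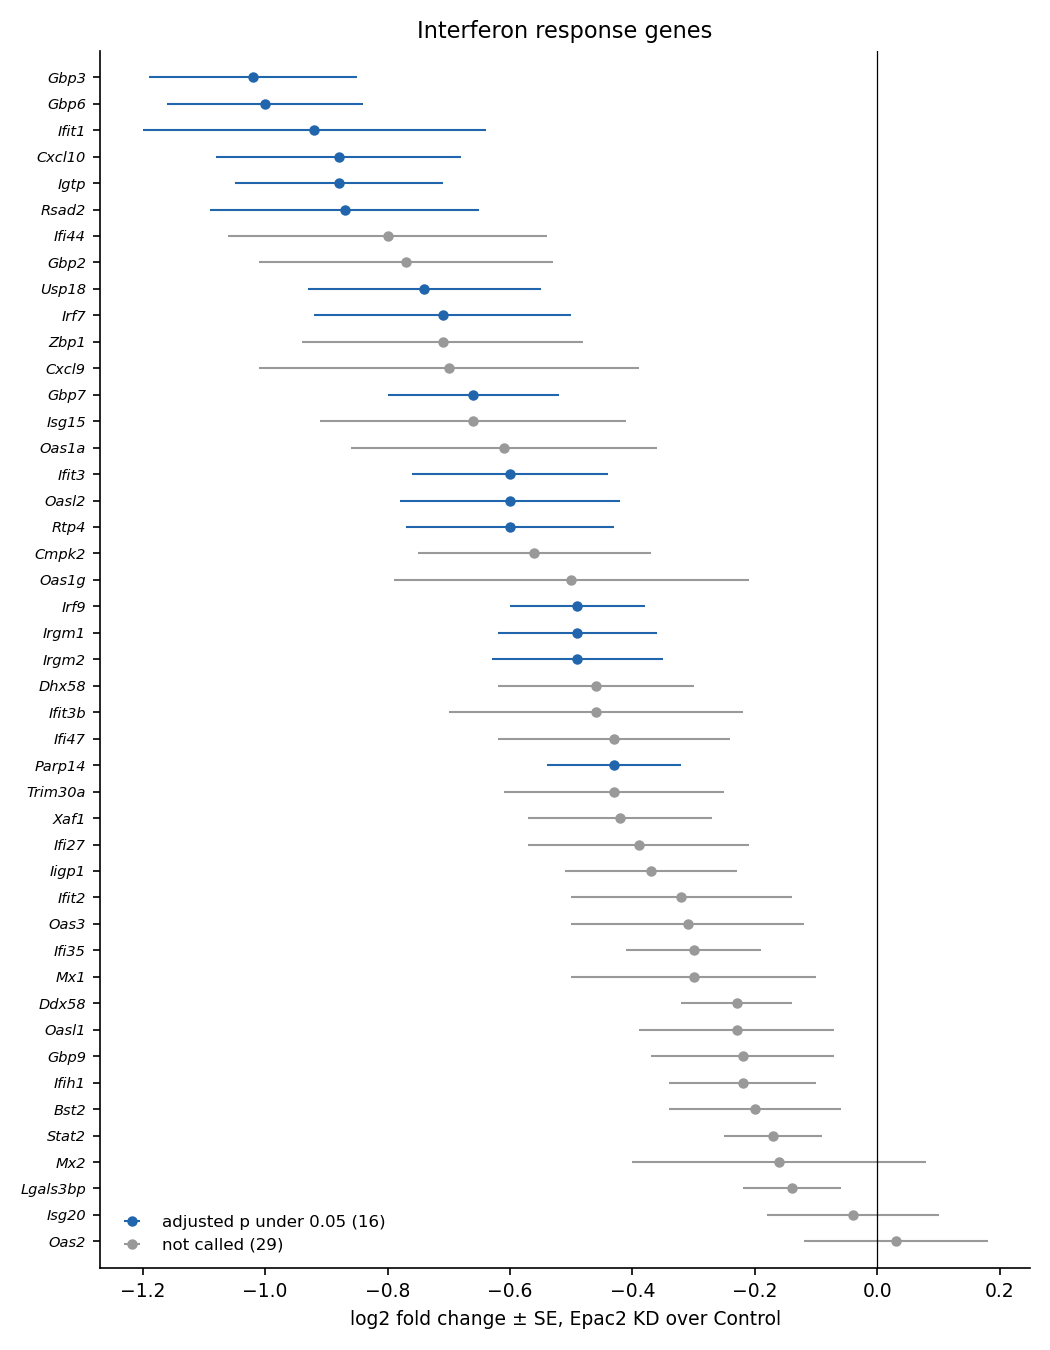
Log2 fold change ± SE of Epac2 KD over Control (x axis) for 45 of the 46 interferon response genes tested, sorted by value, with 16 called genes in blue and 29 others in grey. All but Oas2 lie below 0, and Gbp3 is lowest at -1.02.

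The start regions of the interferon response genes were searched for a known sequence. The interferon-stimulated response element is a pair of GAAA repeats with any 2 bases between them, searched here as GAAANNGAAA or its reverse complement TTTCNNTTTC in the 250 bases before the start site (RefSeq, GRCm38.p6). It was found in 18 of 33 members with a promoter sequence (54.5%) and in 9 of the 12 called members with one. It was found in 3.3% of 10781 tested genes. A match describes these letters and does not show that a factor binds there. The following windows, on the strand of the gene, show the matches in the 9 called members, with matched bases in capitals.
Gbp3 (chr3:142559974-142560039, + strand): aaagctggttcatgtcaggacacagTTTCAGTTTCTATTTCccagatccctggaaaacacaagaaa
Gbp7 (chr3:142530258-142530317, + strand): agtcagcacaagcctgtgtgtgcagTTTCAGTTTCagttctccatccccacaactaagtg
Igtp (chr11:58199497-58199555, + strand): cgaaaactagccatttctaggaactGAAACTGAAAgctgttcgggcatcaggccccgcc
Irgm2 (chr11:58214888-58214947, + strand): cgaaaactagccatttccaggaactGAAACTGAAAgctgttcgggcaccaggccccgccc
Irgm1 (chr11:48871421-48871475, - strand): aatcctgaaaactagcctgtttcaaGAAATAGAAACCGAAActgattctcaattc
Cxcl10 (chr5:92349068-92349127, - strand): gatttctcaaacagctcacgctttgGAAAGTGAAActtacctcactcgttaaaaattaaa
Rsad2 (chr12:26456538-26456597, - strand): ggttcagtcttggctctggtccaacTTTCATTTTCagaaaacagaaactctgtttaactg
Ifit3 (chr19:34583348-34583441, + strand): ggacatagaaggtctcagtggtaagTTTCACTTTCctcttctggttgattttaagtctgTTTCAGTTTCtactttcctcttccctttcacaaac
Ifit1 (chr19:34640760-34640838, + strand): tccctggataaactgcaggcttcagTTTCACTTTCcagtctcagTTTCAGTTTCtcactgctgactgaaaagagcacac

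The mean level of the interferon response genes, as the log2 difference from the Control mean, was -0.72, -0.54 and -0.16 in Epac2 KD and -0.36, 0.02 and 0.26 in Control. Most Epac2 KD libraries lay below all Control libraries, and the groups overlapped at their edges. In the other knockdowns the level was 0.05, 0.37 and 1.28 in Gcgr KD, -0.10, -0.06 and 0.13 in Gnas KD, and -0.30, 0.40 and 0.83 in PKA KD. Gcgr KD and PKA KD thus stood above Control at the median, and Gnas KD close to it. Against the mean of these 3 groups 41 of 46 members were lower in Epac2 KD (median -0.74), where 14.0% of all genes were called lower. That difference also holds the higher levels of Gcgr KD and PKA KD. Against Gnas KD alone 26 of 46 were lower (median -0.49), where 12% of all genes were called lower. This last comparison was added after the levels were seen.

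**Figure D5:**
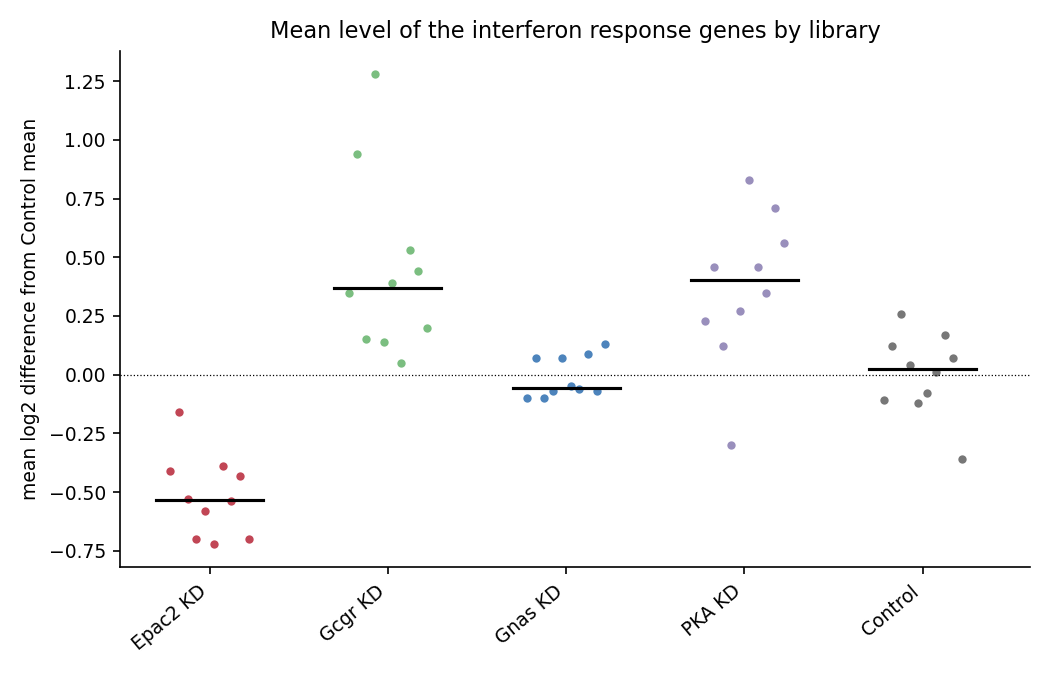
Mean log2 difference from the Control mean over the 46 interferon response genes (y axis) for each of 10 libraries per group, with a bar at the group median. Epac2 KD lies lowest with a median of -0.54, Gnas KD and Control lie near 0, and Gcgr KD and PKA KD lie at 0.37 and 0.40.

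Genes that sense microbes or carry the interferon signal moved little. Of 23 tested ligands, receptors and signalling genes 1 fell, Tlr3, the endosomal receptor for double-stranded RNA (median of the list 0.01). Tlr3 had 2.40, 3.14 and 4.43 CPM in Epac2 KD and 3.14, 4.78 and 5.95 CPM in Control (-0.58 ± 0.13, adjusted p = 0.00206). The receptor genes Ifnar1 (0.01 ± 0.04), Ifnar2 (-0.04 ± 0.06) and Ifngr1 (0.06 ± 0.08) and the kinase gene Jak1 (-0.11 ± 0.08) were not called. Of 17 tested genes of MHC class I antigen presentation, which interferons induce, 3 fell and none rose (median -0.14). B2m, the light chain of every class I molecule, had 830, 998 and 1223 CPM against 1149, 1292 and 1412 CPM in Control (-0.35 ± 0.09, adjusted p = 0.0168). The heavy chain genes H2-Q4 (-0.31 ± 0.09, adjusted p = 0.023) and H2-D1 (-0.26 ± 0.08, adjusted p = 0.0394) have near copies and lost their calls without any of 3 and 12 of the 20 libraries. H2-D1 was also lost with no filter on low counts (adjusted p = 0.0537). For H2-Q4 these were Epac2 KD replicates 2 and 10 and Control replicate 5. None of 8 class II genes was called (median -0.12).

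Markers of immune cells are given beside these values. Of 11 tested T and NK cell markers none was called and 10 lay below 0 (median -0.37), with a summed level of 4.45, 7.45 and 21.5 CPM in Epac2 KD and 5.58, 9.30 and 26.0 CPM in Control. Of 10 markers of infiltrating monocytes and dendritic cells, Ly6c2 fell, at 0.304, 0.413 and 0.849 CPM against 0.394, 1.16 and 1.68 CPM in Control (-1.04 ± 0.25, adjusted p = 0.00587). Their sum was 8.14, 12.4 and 27.9 CPM against 6.65, 16.1 and 26.5 CPM. None of 15 Kupffer cell and macrophage markers was called (median 0.23), with sums of 225, 477 and 772 CPM against 322, 405 and 573 CPM. None of 5 tested markers of plasmacytoid dendritic cells, a source of type I interferon, was called (median -0.20), with sums of 65.9, 87.1 and 124 CPM in Epac2 KD and 72.7, 89.0 and 128 CPM in Control. Bst2, also counted among the interferon response genes, is part of these sums. It had 37.3 to 73.2 CPM in Epac2 KD and 48.6 to 75.9 CPM in Control. Siglech, another marker on that list, had 0.04 to 0.64 CPM in Epac2 KD and 0.23 to 0.95 CPM in Control. The part of immune cells in the lower interferon response was not tested.

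Stress and growth lists gave the following calls. Of 20 p53 targets 2 rose and 2 fell (median 0.33), where 4.56% of all genes were called in either direction. Cdkn1a, the cell cycle inhibitor p21, had 13.8, 35.0 and 72.0 CPM in Epac2 KD and 8.22, 17.5 and 34.5 CPM in Control (1.02 ± 0.31, adjusted p = 0.0434), a call lost without any of 13 of the 20 libraries, with no filter, with the 20 libraries alone and with limma-voom (adjusted p = 0.0676, 0.0661 and 0.0706). Btg2, an antiproliferative gene, rose (0.66 ± 0.18, adjusted p = 0.0244), which was lost without Epac2 KD replicate 2, 7 or 10 or Control replicate 3 (adjusted p up to 0.105), with the 20 libraries alone and with limma-voom (adjusted p = 0.121 and 0.0856). Trp53inp1 (-0.74 ± 0.19, adjusted p = 0.0114) and Perp (-0.33 ± 0.09, adjusted p = 0.021) fell. All 28 tested cell cycle genes lay below 0 (median -0.36) and 1 was called, Aurka, a mitotic kinase at 0.61, 0.90 and 1.63 CPM against 1.13, 1.66 and 2.47 CPM (-0.88 ± 0.25, adjusted p = 0.0301). Its call was lost without Epac2 KD replicate 4, 6 or 7 or Control replicate 6 or 8 (adjusted p up to 0.0642).

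The acute phase list had 1 call of 28, Orm3, with a median of 0.32. Mitochondrially encoded RNAs all lay above 0 with none of 13 called (median 0.33), and replicate 5 of Epac2 KD had the highest sum. None of 24 male-biased liver genes (median 0.45) or 14 female-biased ones (median 0.38) was called. The summed male-biased level ran between 4271 and 47096 CPM in Epac2 KD and between 4579 and 29591 CPM in Control, a wide spread within each group, with replicate 7 of Epac2 KD the highest. Slc7a5, an amino acid transporter, was the single call of 22 genes of the ATF4 response (0.56 ± 0.16, adjusted p = 0.0347), and Sesn3, a FOXO target, that of 16 insulin and FOXO genes (-0.33 ± 0.10, adjusted p = 0.0434). These calls were lost without any of 8 and 13 of the 20 libraries, and both with no filter, with the 20 libraries alone, with the replicate block and with limma-voom (adjusted p between 0.0502 and 0.157). Slc7a5 was high in the other knockdowns too, at 2.2 to 3.4 CPM in Gcgr KD, 1.8 to 3.9 in Gnas KD and 1.9 to 5.2 in PKA KD. It had 1.3 to 5.3 CPM in Epac2 KD and 1.3 to 2.2 CPM in Control. Lect2, a secreted protein of pericentral hepatocytes, fell (-0.54 ± 0.12, adjusted p = 0.00248) as 1 of 16 Wnt targets there. Igf2r, an imprinted gene, rose (0.25 ± 0.07, adjusted p = 0.0193) as 1 of 10 imprinted genes, and was lost without Epac2 KD replicate 10 (adjusted p = 0.0644).

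The tissue label was checked against cell type markers. The 9 hepatocyte markers summed to 91827, 105552 and 147042 CPM in Epac2 KD and 107035, 118548 and 141146 CPM in Control. Among them Apoa1 fell, which encodes the main protein of high-density lipoprotein and stood at 4277, 5479 and 7932 CPM against 6577, 8642 and 9756 CPM in Control (-0.52 ± 0.12, adjusted p = 0.00566). Sox9, described above, is among the 7 tested bile duct cell markers. Their sum was 67.2, 81.9 and 194 CPM against 54.7, 63.2 and 131 CPM. None of 15 endothelial markers (median 0.14), 13 stellate cell and fibroblast markers (0.04), 3 neutrophil markers (0.03), 6 B and plasma cell markers (0.09) or 5 erythroid markers (0.36) was called. The pancreatic markers Prss2 and Cpa1 were at 0 in all 20 libraries. All 8 pancreatic acinar markers together summed to 5.53, 10.6 and 40.3 CPM in Epac2 KD and 5.0, 7.64 and 17.1 CPM in Control. Cela1, the 1 of them that was tested, was not called.

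In all, 25 lists had no member called by edgeR. Over their 316 memberships, 28 had an unadjusted p under 0.05, limma-voom called 1 and DESeq2 called 4. These were Adcy6 by both tools, and Prkar1a, Moxd1 and Canx by DESeq2. The genes nearest the threshold were Cldn1, a tight junction protein gene just inside it (-0.43 ± 0.13, adjusted p = 0.0498) that was not called with no filter or with the 20 libraries alone (adjusted p = 0.0708 and 0.0733), and Dlg1, a scaffold protein gene just outside it (0.17 ± 0.05, adjusted p = 0.0501). An unadjusted p under 0.05 was found for 2255 genes.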

How the data were processed

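The deposited values were expected counts per Entrez gene and library for the 50 libraries of experiment 1, per the file headers. The authors made them before deposit. The aligner is not given in the sources used here, nor is the counter, and the submitters' processing notes name bcl2fastq 2.17, FastQC and the builds GRCm38 and mm10. Of 24475 genes, 24375 matched a RefSeq symbol by Entrez ID and 5042 were 0 in every library. A fractional part was present in 8.54% of entries (tolerance 1e-06), and values were rounded to whole counts. No column was left unused (0).

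Tests used edgeR 4.0.16 in R 4.3.3: filterByExpr, TMM scaling and the robust quasi-likelihood F test on all 5 groups together (45 residual degrees of freedom, common dispersion 0.0471), with Benjamini-Hochberg adjustment over 13574 genes. The SE is the log2 fold change divided by the root of F. CPM use TMM library sizes. The interferon level is the mean of log2 CPM (prior count 2) minus its Control mean. Counts of any pair of libraries within a group differed by more than sampling noise (lowest chi-squared per degree of freedom 18.8 over 90 pairs).

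The comparison, the 46 lists (33 of pathways, 13 of cell markers, 797 memberships) and the rules were chosen with earlier results of these data known. Of the listed names, 5 found no match and 1 matched by a synonym. Named were genes of the Epac, Rap and interferon lists, 9 cascade and 15 metabolic genes, the 12 largest changes each way at an average log2 CPM of at least 1 with at least 9 of 10 libraries of each group past the other's median, the 8 lowest p-values each way, up to 5 called members each way per list, and the genes nearest the threshold. Mia3, Lman1 and Mpc2 are outside that rule. Some genes it names are not reported here.

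Alternatives were RLE scaling, no filter, the 20 libraries alone, a replicate block, a covariate for male-biased genes, limma-voom (limma 3.58.1), DESeq2 1.42.0 and leaving out each library. The steps were tested on simulated counts, drawn independently for each gene and library from the Control means and the trend of dispersion with level. Changes were given only to genes above a floor of expected counts. Of simulated log2 changes of 0.5 in size 56% were recovered, and of those of 1 in size 97%. Among all simulated calls 4.4% were false. The simulation held no variation shared by genes between libraries, so these shares do not give the error rate of the calls reported here. The vector dose is not stated in the labels.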

Additional observations from a re-analysis of the deposited data

Results flagged for a closer look

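In 59 called or cascade genes named in the text, the highest and the lowest library of each group were compared with the rest of that group, in 118 groups of 10. A library was noted where its gap to the nearest other library, divided by the range of the group and taken on the log2 CPM scale, was above the critical value of Dixon's test at the 95% level. The values given here are in CPM, a scale on which the gaps were not compared. This occurred in 6 groups, and chance gives about 1 in 20. In Epac2 KD, replicate 7 was the lowest for Ddah1, at 20.4 CPM with the next library at 44.4 CPM, and the lowest for Hamp2, at 5.69 CPM with the next at 40.4 CPM. Replicate 8 was the highest for Nr3c1, at 44.4 CPM, still below every Control library. Replicate 4 was the lowest for Tmem147, at 42.5 CPM, and replicate 5 the highest for Gnas, at 448 CPM. In Control, replicate 7 was the highest for Myo6, at 58.4 CPM with the next at 49.7 CPM. Ddah1, Hamp2, Nr3c1, Tmem147 and Myo6 stayed called whichever single library was left out.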

How the results depend on the processing

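No named gene that was called, in the original fit or in the alternative, changed its direction under any of 27 alternatives. Changes of sign in genes called in neither fit were not counted. Genes called in Epac2 KD against Control, 247 higher and 372 lower, numbered 246 and 379 with RLE scaling, 170 and 351 with no filter, 185 and 374 with the 20 libraries alone, 201 and 368 with limma-voom, and 324 and 435 with DESeq2. A covariate for male-biased genes moved them to 396 and 522, with 612 calls shared with the original fit, and the called interferon response members to 30, against 17. These members otherwise numbered 15 to 24 with all libraries. Leaving out 1 library at a time gave 175 to 252 rises, 315 to 400 falls and 13 to 20 interferon members. Of 77 called named genes, 54 were called in every alternative and 63 in the 7 that kept all libraries. The cause of these shifts was not tested.

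Replicate numbers did not pair the samples. Of 10 same-numbered pairs, 3 correlated above 0.1 in their deviations, and 1 of 10 Epac2 KD libraries correlated best with its own number. The replicate block gave 256 and 383 calls and 17 interferon members. Genes under about 1 CPM, such as Rec8 and Ly6c2, rest on few counts.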
